A study of Homo sapiens with 3 samples.

Results

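The clusters described here are those that the deposited annotation places in 3' untranslated regions (3' UTRs), the stretch of a messenger RNA after the stop codon. They come from a PAR-CLIP experiment on MATR3 in HAP1, an established human cell line of near-haploid chromosome content that goes back to a chronic myeloid leukaemia. A cluster is a stretch of overlapping reads that carries T-to-C changes. All clusters annotated as 3' UTR and not mitochondrial were taken, and each library was counted separately. There were 2562 among 87230 clusters in the first wild-type (WT) replicate, called WT rep1, 1131 among 27155 in the second, WT rep2, and 53 among 842 in the 1 library from a MATR3 knockout (KO) line. In all, 3746 of 115227 clusters were in 3' UTRs. The KO line is the study's negative control. Its labels do not record how the knockout was made. With a single KO library the spread within that genotype is unknown, and no test between genotypes was run. Per the labels' protocols, complexes were recovered on anti-FLAG beads, while no tag on MATR3 is recorded in any label. The series' design calls the WT replicates independent, without saying whether they were separate cultures.

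MATR3 is an abundant RNA-binding protein of the nuclear matrix with a pair of RNA recognition motifs, known for binding pyrimidine-rich RNA, much of it in introns, and for regulating splicing. In PAR-CLIP, cells take up 4-thiouridine, UV light crosslinks it to bound protein, and the crosslinked base is read as C in place of T. A read without such a change carries no mark of crosslinking. 3' UTRs hold sites for many proteins that set the stability, translation and location of an mRNA. Among these are the Pumilio proteins, cytoplasmic repressors that recruit deadenylases and bind an element written TGTANATA in DNA letters, where N is any base, whose core is TGTA.

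A pair of sequence patterns is shown first, pyrimidine tracts and the Pumilio element. The tracts come from overlapping clusters of both WT libraries. Ranked by the geometric mean of their reads, 6 of the first 10 such pairs are printed, chosen after their sequences were seen, at most 30 bases each, 5′ to 3′ on the transcript strand, with runs of at least 5 pyrimidines in capitals. Positions are on hg38, the build in the submitters' processing notes. The stretches are SCD chr10:100361183-100361212 (+), MYADM chr19:53874943-53874972 (+), TRIM22 chr11:5709732-5709761 (+), TRIM71 chr3:32891853-32891882 (+), BRPF3 chr6:36231134-36231163 (+) and U2SURP chr3:143056623-143056650 (+).
SCD: ctatcgCCCTCCTTTCCCTTattgCCTCCC
MYADM: TTTCTCTTTTTCCaCTCTTCTTTTTTCTCa
TRIM22: accaTCTCTTCCTTTCTTTCCCCTTCTTTT
TRIM71: TCTCTCTCTCTCTCTCTCTCTTTCTCTTTC
BRPF3: CTTTCTCTTTCCCataTTCCTTTTCTTTTT
U2SURP: ttttatattgtgtaaattaCTTTCattg
The first 5 hold long runs of C and T, while the U2SURP stretch has only 1 short run. It also holds the Pumilio core TGTA, left in lower case, but not the whole element. Of the pairs not printed, TOMM20 and SRSF2 were less rich in pyrimidines, with 67.4% and 64.7%, and 65.7% and 67.6%, of their bases in WT rep1 and WT rep2. Tracts did not mark depth in both libraries: the median pyrimidine share was 66.7% among 3' UTR clusters of 5 to 9 reads and 72.9% at 200 reads and over in WT rep1, but 68.0% and 67.9% in WT rep2.

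The second pattern is shown by 3' UTR clusters picked, after their values were seen, from the 8 deepest of each library that hold the element among those considered for printing, with the element in capitals. From WT rep1 these are WEE1 chr11:9589484-9589513 (+), C3orf58 chr3:143990457-143990486 (+) and LBR chr1:225402674-225402703 (-). From WT rep2 they are EIF4A3 chr17:80135298-80135327 (-), SLC38A2 chr12:46358305-46358330 (-), BRIX1 chr5:34925541-34925570 (+), RBPJ chr4:26432932-26432961 (+) and MCL1 chr1:150576664-150576693 (-). From KO they are CTGF chr6:131948620-131948649 (-), PUM2 chr2:20250877-20250906 (-) and AUTS2 chr7:70791449-70791478 (+).
WEE1: tttctcttcaatatttgTGTATATAaaccg
C3orf58: atattacattaTGTAAATActtcttttcac
LBR: aaaaTGTAAATAcatagcttagttttttgt
EIF4A3: ttttcttatttacaTGTAAATAatacattg
SLC38A2: TGTATATAgTGTAAATAtccccactg
BRIX1: tgtattcaatgTGTAAATActtttattatc
RBPJ: ccacTGTAAATAttcttcctaacatcttta
MCL1: tttgtaaaaatTGTATATAtttttacagaa
CTGF: tgtgTGTATATAtatatatatgtacagtta
PUM2: aaatatTGTATATActtacatatgtaattg
AUTS2: tttactttgtacaaaTGTAAATAgataaag
The SLC38A2 stretch holds the element 2 times, 1 base apart. Several of the others hold a further TGTA in lower case.

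The 3' UTR took a small share of each library, and that share differed between the WT replicates. It was 2.94% of clusters in WT rep1 (95% Wilson interval 2.83 to 3.05%) and 4.16% in WT rep2 (3.93 to 4.41%), while KO had 6.29% (4.84 to 8.14%). Over both WT libraries the mean was 3.55 ± 0.868% (SD, n = 2). By reads the 3' UTR share was 3.87%, 6.38% and 8.16% in the same order, with a WT mean of 5.12 ± 1.77% (SD, n = 2). KO thus lay above both WT libraries on either measure. With only the 842 deepest clusters of each library the WT mean was 10.7% and lay above KO, so the order of the genotypes depends on how many clusters are counted. Wilson intervals here cover counting error only, since reads carry no molecular identifiers.

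Depth per cluster ran opposite to the number of clusters. The 3' UTR clusters held 103366 reads in WT rep1, 99394 in WT rep2 and 18290 in KO. The median was 24 reads per cluster (quartiles 13 and 44) in WT rep1, 54 (20 and 100) in WT rep2 and 278 (129 and 449) in KO. Intronic clusters of the same libraries had medians of 20, 38 and 240 reads. Reads per distinct read sequence in the 3' UTR rose from 7.70 in WT rep1 to 19.6 in WT rep2 and 33.2 in KO, so single sequences were read many times in the last 2. MATR3 itself had no 3' UTR cluster in any library, and its clusters of all classes numbered 53, 26 and 0 in the same order. Among the markers, BCR and ABL1, the genes joined in chronic myeloid leukaemia, had no 3' UTR cluster, and the 5 blood cell markers PTPRC, CD34, CD33, GATA1 and SPI1 had no cluster of any class; clusters do not measure expression, so this is no check of the cell line.

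In base composition the WT 3' UTR clusters were close to intronic ones. C and T made up 66.8% of their bases in WT rep1 and 67.9% in WT rep2, against 68.1% and 68.9% in introns. Clusters with at least 70% pyrimidines were 40.8% of 3' UTR clusters in WT rep1 and 44.7% in WT rep2. The intronic shares were 45.1% and 48.9%, and the differences were -4.30 percentage points (95% Newcombe interval -6.22 to -2.35) and -4.12 (-7.07 to -1.14). In KO only 6 of 53 3' UTR clusters were pyrimidine-rich, 11.3% (5.29 to 22.6%), against 15.7% of its intronic clusters.

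T was the commonest base of the 3' UTR clusters everywhere, at 39.0% in WT rep1, 42.2% in WT rep2 and 40.0% in KO. The WT mean was 40.6 ± 2.25% (SD, n = 2), and KO lay within that spread. C lay outside it, with 27.8% and 25.8% in WT and 18.6% in KO, and so did A, 21.8% and 21.3% in WT and 27.7% in KO. Against introns of the same library, the T share of 3' UTR clusters was 1.36 percentage points lower in WT rep1, 0.0995 higher in WT rep2 and 6.79 higher in KO. The 2 WT libraries did not share a direction.

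Around the mode, the position the authors give as each cluster's peak, the 3' UTR and intronic profiles ran together in WT. At the mode itself 65.3% of 3' UTR clusters had a pyrimidine in WT rep1 and 68.0% in WT rep2, against 65.4% and 68.7% in introns. The highest value within 12 nt was 71.7%, 8 nt before the mode, in WT rep1 and 74.5%, 10 nt before it, in WT rep2. The KO profile rests on at most 53 clusters and swung between 45.5% and 75.7%.

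**Figure D1:**
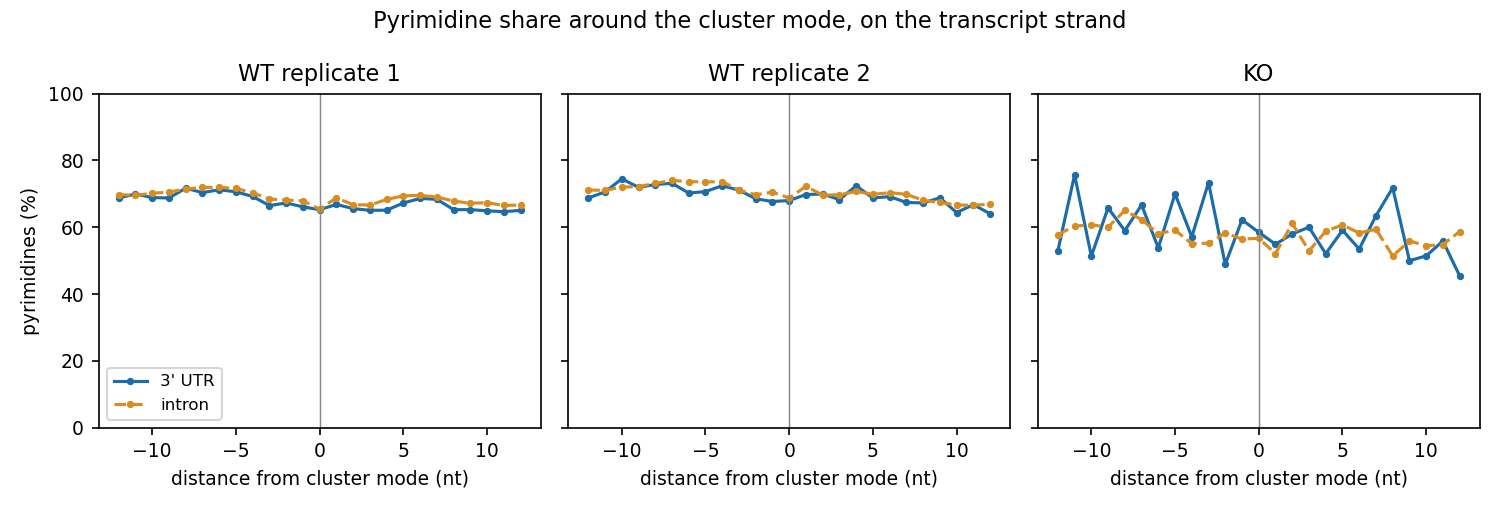
Share of C and T (%) at each distance from the cluster mode (nt, negative before it on the transcript), for 3' UTR clusters (solid) and intronic clusters (dashed) of each library. The WT curves stay close together, with 65.3% and 65.4% at the mode of WT rep1, while the KO curve of 53 clusters is uneven.

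The Pumilio element set the 3' UTR clusters apart from intronic ones in every library. TGTANATA was searched on the transcript strand only, as the deposited sequences give it, and contains TGTA by definition. It was held by 47 of 2562 3' UTR clusters in WT rep1, or 1.83% (1.38 to 2.43%). The share over all clusters of that library was 0.211%, and that of introns was 0.154%. In WT rep2 it was held by 67 of 1131, or 5.92% (4.69 to 7.45%), where all clusters gave 0.442% and introns 0.182%. In KO it was held by 13 of 53, or 24.5% (14.9 to 37.6%), where all clusters gave 2.38% and introns 1.11%. The 3' UTR share exceeded the intronic share by 1.68 percentage points (Newcombe interval 1.23 to 2.28) in WT rep1, 5.74 (4.51 to 7.27) in WT rep2 and 23.4 (13.7 to 36.5) in KO. The ranking of the libraries is that of their median depth, and its cause was not tested. A match is a description of letters and not a site, and how often the element occurs in 3' UTRs as a whole is not analysed here.

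The core TGTA alone gave the same order. It was present in 8.27% of 3' UTR clusters in WT rep1, 15.03% in WT rep2 and 54.7% in KO (41.5 to 67.3%), against 4.18%, 3.66% and 8.33% of intronic clusters and 4.30%, 4.22% and 11.995% of all clusters. The differences from introns were 4.09 points (3.08 to 5.23), 11.4 (9.39 to 13.6) and 46.4 (32.9 to 59.2). The form TGTAAATA made up 26 of the 47 element clusters in WT rep1 and 32 of the 67 in WT rep2, but 2 of the 13 in KO; over all clusters it was in 0.0757%, 0.191% and 0.238%. Among 517 hexamers seen in at least 15 3' UTR clusters of each WT library, that with the highest ratio to introns was TGTAAA, followed by GTAAAT and then by TGTATA. The first was in 2.07% of 3' UTR clusters in WT rep1 and 4.77% in WT rep2, against 0.293% and 0.270% of intronic clusters. These hexamers overlap the element and are not counted as further motifs. TGTAAA was in 53 and 54 WT 3' UTR clusters, more than held TGTAAATA, and whether it stands apart from the element was not tested.

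Other words differed less. ATCTT, a word reported for MATR3 in vitro, was in 13.3% of 3' UTR clusters of WT rep1 and 12.02% of WT rep2, against 14.8% and 15.9% of introns and 14.7% and 15.6% of all clusters; both differences from introns, -1.49 (-2.78 to -0.092) and -3.90 (-5.73 to -1.82), lay below 0. The pyrimidine words TTCTT and TTTCT, which overlap each other and ATCTT in part, were in 29.0% and 31.3% of WT rep1 and 31.7% and 33.7% of WT rep2 3' UTR clusters (30.3% and 31.97%, and 31.6% and 32.8%, of all clusters), with intervals of the difference from introns that include 0. The poly(A) signal AATAAA was in 3.01% and 2.39% of WT 3' UTR clusters against 1.54% and 1.15% of intronic ones and 1.61% and 1.19% of all. Both its differences, 1.47 (0.866 to 2.21) and 1.24 (0.484 to 2.31), lay above 0. The AU-rich core ATTTA, a destabilising element, was in 8.51% and 6.98% of WT 3' UTR clusters and 8.79% and 8.16% of all, again with intervals that include 0. The C tract CCCCC, a target of poly(C)-binding proteins, was in 4.06% and 3.63% of WT 3' UTR clusters against 2.97% and 2.14% of intronic clusters and 3.01% and 2.19% of all. The UG repeat TGTGT, a target of CELF proteins, was in 2.54% and 3.45% of WT 3' UTR clusters against 1.61% and 1.81% of introns and 1.60% and 1.87% of all. GTGGC and GGAGA, purine-containing words from earlier results of this series, were in 1.87% and 1.48% of WT rep1 3' UTR clusters and in 1.60% and 1.15% of all, with intervals of the difference from introns that include 0 in every library. The T tract TTTTT was in 19.8%, 23.0% and 24.5% of 3' UTR clusters of WT rep1, WT rep2 and KO, and in 18.4%, 19.3% and 9.14% of all clusters. Introns held it in 18.9%, 19.5% and 7.96% of clusters, lowest in KO. The differences from introns were 0.891 points (-0.632 to 2.502), 3.48 (1.06 to 6.07) and 16.6 (6.63 to 29.8).

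**Figure D2:**
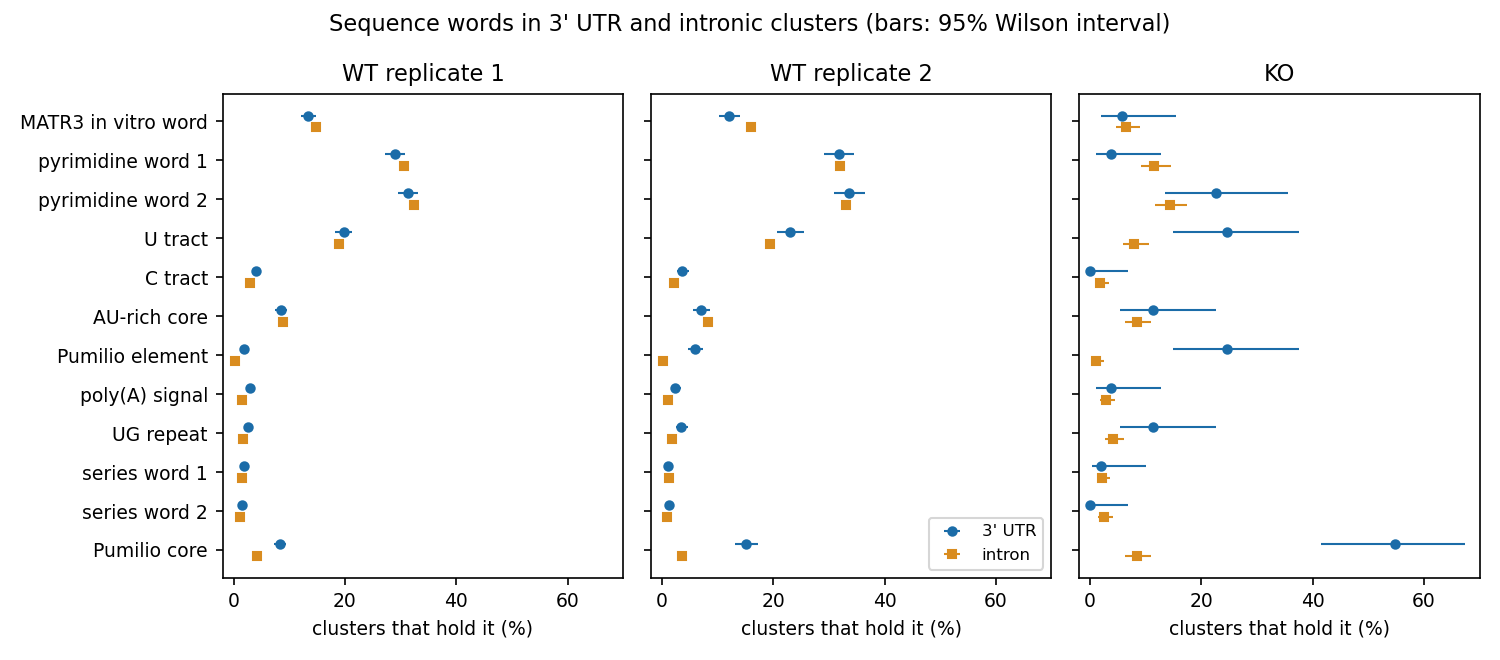
Share of clusters (%) that hold each of 12 sequence words, named by what they are known for (pyrimidine words 1 and 2 are TTCTT and TTTCT, series words 1 and 2 are GTGGC and GGAGA), in 3' UTR clusters (circles) and intronic clusters (squares) of each library, with 95% Wilson intervals. The Pumilio core and element lie to the right of the intronic value in all 3 panels, while the pyrimidine words lie close to it in the WT panels.

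Clusters with the element were few but deep in WT. In WT rep2 they were 5.92% of 3' UTR clusters and held 19.5% of 3' UTR cluster reads, with a median of 125 reads against 51 for the other 3' UTR clusters. In WT rep1 they held 3.85% of reads, with medians of 57 and 23. In KO they held 31.1% of reads, but the medians of 278 and 273 were alike. In WT rep2 the share with the element was 0.917% among clusters of 5 to 9 reads, 3.37% at 20 to 49, 7.73% from 100 to under 200 and 22.8% (15.4 to 32.4%) at 200 reads and over. That deepest class exceeded the shallower clusters by 18.4 points (10.9 to 28.0). The same difference in WT rep1 was 3.24 (-0.0969 to 11.95), with 3 of 60 clusters in the class. Introns of at least 200 reads held the element in 0.394% of clusters in WT rep1 and 0.690% in WT rep2.

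The deepest single clusters show the contrast between the WT replicates. In WT rep2, 7 of the 10 deepest 3' UTR clusters held the element. The deepest was in EIF4A3, a helicase of the exon junction complex, with 3878 reads. SLC38A2, an amino acid transporter, followed with 1720 reads, and BRIX1, a ribosome assembly factor, with 1567. RBPJ, the DNA-binding factor of Notch signalling, had 1107 reads, SKI, a repressor of TGF-beta signalling, 1052, and the anti-apoptotic protein MCL1 738. In WT rep1 the element was in 1 of the 10 deepest, that of WEE1, a kinase that restrains entry into mitosis, with 517 reads. The deepest cluster there was in MYADM, with 1445 reads and a pyrimidine share of 68.6%.

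Reads in the element clusters carried a T-to-C change less often than other 3' UTR reads in WT. The EIF4A3 cluster had a change in 8.33% of its reads, SLC38A2 in 12.1%, BRIX1 in 15.1%, RBPJ in 11.5% and LBR, the lamin B receptor gene, in 10.1%. Over all element clusters the median was 33.3% of reads in WT rep1 and 32.3% in WT rep2, against 87.5% and 95.5% in the other 3' UTR clusters. Element clusters were also deeper, and deep clusters without the element had low medians too. At 200 reads and over these were 60.1% in WT rep1 and 42.9% in WT rep2. Within read classes the mean WT difference in medians was -40.4 points, against -58.7 over all clusters. Clusters with a change in under 50% of reads were 68.1% of element clusters in WT rep1 and 13.7% of the others, a difference of 54.4 points (40.0 to 66.0). In WT rep2 they were 64.2% and 14.5%, a difference of 49.7 (37.5 to 60.3). In KO they were 3 of 13 and 8 of 40, a difference of 3.08 (-17.9 to 31.9). With so few clusters that interval is too wide to tell whether element clusters differ there. Each cluster in the lists still has at least 2 converted positions, a limit seen in the files.

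Low conversion was not limited to the element. Among all 3' UTR clusters, those with a change in under 50% of reads were 14.7% in WT rep1, 17.4% in WT rep2 and 20.8% in KO, against 3.74%, 3.15% and 5.00% of intronic clusters. The differences were 11.0 points (9.65 to 12.4), 14.3 (12.2 to 16.6) and 15.8 (6.74 to 28.6). Without any cluster that holds TGTA they were 8.86 (7.57 to 10.3) and 8.61 (6.71 to 10.8) in the WT libraries and 7.50 (-0.941 to 26.1) in KO. At 200 reads and over in WT rep2, 64.1% of 3' UTR clusters and 11.0% of intronic ones were below the limit. There, 56.3% of 3' UTR clusters without the element still were. In that read class the 3' UTR and intronic shares were 26.7% and 1.77% in WT rep1 and 24.3% and 6.60% in KO. Of all T positions read, 6.34% were converted in 3' UTR clusters of WT rep1, 4.93% in WT rep2 and 6.84% in KO, below the 8.03%, 7.77% and 10.5% of introns. The WT mean was 5.63 ± 0.997% (SD, n = 2), and KO lay above both WT libraries.

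**Figure D3:**
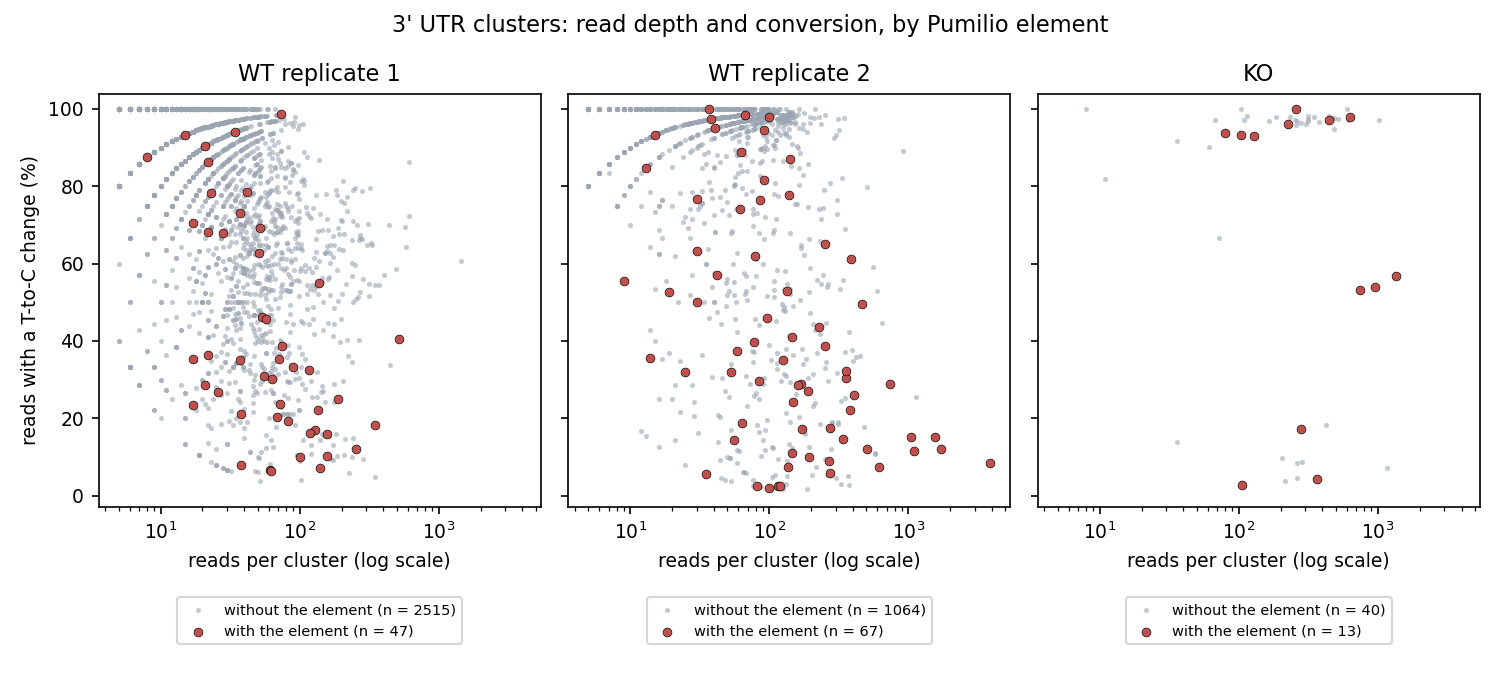
Converted share of reads (%, T-to-C) against reads per cluster (log scale) for every 3' UTR cluster of each library, with the Pumilio element (large red points) or without (small grey points). In the WT panels most element clusters lie below 50%, and in WT rep2 the deepest cluster, 3878 reads at 8.33%, holds the element.

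Element clusters also lay nearer to gene ends. Distance was taken to the 3' end of the gene in RefSeq (GRCh38.p14, same strand), with distances only and no coordinates used from that table, and it is not the distance to the poly(A) site in use. The 2533, 1124 and 53 3' UTR clusters that lay inside the RefSeq gene had a median distance of 1764 nt in WT rep1, 1833 in WT rep2 and 982 in KO. Within 200 nt of the end lay 19.1% of element clusters against 5.63% of the others in WT rep1, a difference of 13.5 points (4.73 to 26.9). In WT rep2 it was 19.4% against 7.38%, a difference of 12.02 (4.13 to 23.1). In KO it was 23.1% against 10.0%, a difference of 13.1 (-6.73 to 40.9).

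The 2 WT libraries found the same position in a minority of cases. Of 1131 3' UTR clusters of WT rep2, 215 shared 1 nt or more, strand included, with a cluster of WT rep1, or 19.01% (16.8 to 21.4%), where 19.5% of all clusters did. Each of the 215 overlapped a cluster annotated as 3' UTR. In the other direction 209 of 2562, or 8.16%, overlapped, where 6% of all clusters did. The differences from introns were -1.24 points (-3.49 to 1.20) and 1.97 (0.957 to 3.11). Overlap was far lower where the element was present in WT rep2, with 3 of 67 element clusters against 212 of 1064 others, a difference of -15.4 points (-19.3 to -7.24). In WT rep1 the same difference was 0.360 (-4.92 to 11.8).

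Deep 3' UTR clusters of WT rep2 were found again less often than deep intronic ones. At 200 reads and over, 22 of 92 overlapped, or 23.9%, against 51.7% of 435 intronic clusters, a difference of -27.8 points (-36.7 to -17.1). Without element clusters it was -22.1 (-32.6 to -9.78). In WT rep1 the difference in that class was -8.32 (-20.4 to 5.04). Libraries of unequal depth and number of clusters limit all of these shares.

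**Figure D4:**
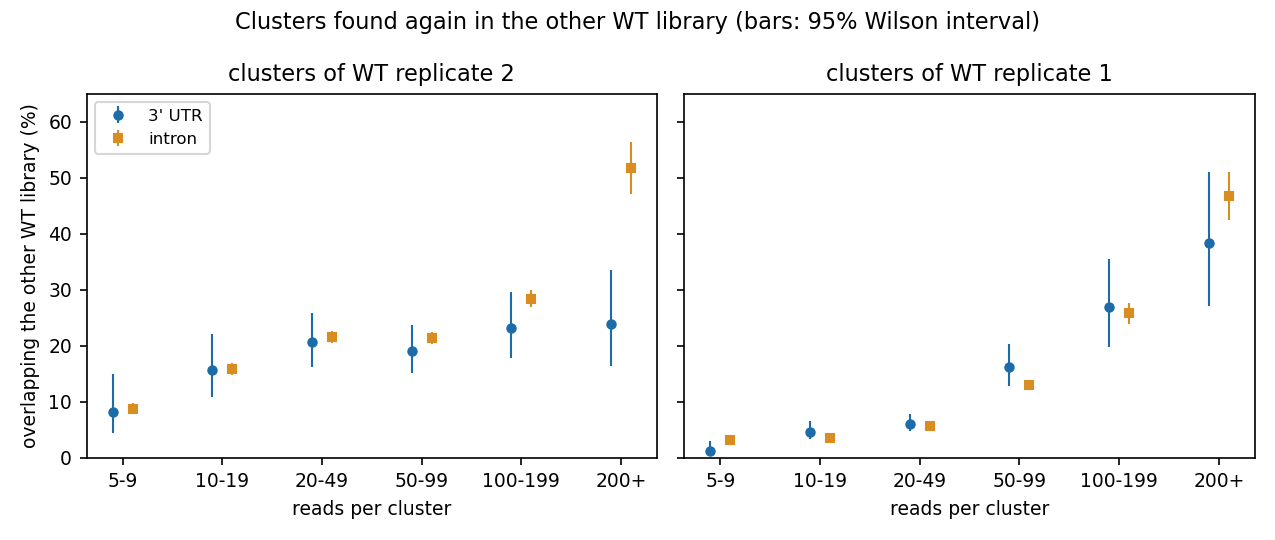
Share of clusters (%) that overlap a cluster of the other WT library by at least 1 nt, by reads per cluster, for 3' UTR clusters (circles) and intronic clusters (squares), with 95% Wilson intervals. In WT rep2 the classes run together up to 100 reads and part at 200 and over, 23.9% against 51.7%.

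The clusters found in both WT libraries were richer in pyrimidines than the 3' UTR clusters at large. Leaving out chromosome 8, there were 213 overlapping pairs in 159 genes, with a median pyrimidine share of 72.4% in WT rep1 and 74.2% in WT rep2, against medians of 67.3% and 67.9% over all 3' UTR clusters. The median share of reads with a change was 68.9% and 91.3%, against 87.5% and 95% over all 3' UTR clusters. These are descriptions, since the pairs are part of the whole. Their modes lay within 5 nt of each other in 51 pairs. The element was in both members of 3 pairs. The pair with the highest geometric mean of reads was in SCD, the stearoyl-CoA desaturase that makes monounsaturated fatty acids, with 571 reads in WT rep1 and 376 in WT rep2. TOMM20, a receptor of the outer mitochondrial membrane, had 613 and 344 reads. In MYADM the counts were 1445 and 121, and the WT rep1 cluster there was 229 nt long against 41 nt. TRIM22, an antiviral TRIM protein, had 265 and 646 reads, and the splicing factor SRSF2 had 439 and 351. CASP2, a caspase, had 326 and 307 reads, and PRC1, which bundles spindle microtubules, 254 and 257. U2SURP, a protein of the U2 snRNP, differed from the rest: its reads carried a change in 4.86% and 7.34% of cases, against 69.4% and 42.3% in SCD. Its stretch, printed above, holds the Pumilio core TGTA.

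By gene, reads in 3' UTR clusters were spread thinly. There were 1522 genes in WT rep1, 792 in WT rep2 and 52 in KO. A single 3' UTR cluster was found in 1045, 597 and 51 of them. The 10 genes with the most reads held 10.2% of 3' UTR cluster reads in WT rep1, 14.5% in WT rep2 and 46.9% in KO. Both WT libraries shared 430 genes, which is 28.3% of the first list and 54.3% of the second. For intronic clusters the shared genes were 62.5% and 93.8%. Intronic clusters were far more numerous per gene, with 73317 in 7879 genes of WT rep1 and 22569 in 5250 genes of WT rep2. The 3' UTR clusters numbered 2562 and 1131, so the gene shares of the 2 classes are not like for like. Over the 430 shared genes the reads per gene correlated with Spearman's rho of 0.346 and Pearson's r of 0.364 on the log2 scale. Over the 1884 genes found in either library, where most are at 0 in the other, the values were -0.124 and -0.214. These are descriptions across genes, which share library and depth and are not replicates. Genes with a 3' UTR cluster also had an intronic cluster in the same library in 78.4% of cases in WT rep1, 60.7% in WT rep2 and 5.77% in KO. As background, an intronic cluster was present in 7879 of 9222, 5250 of 6060 and 500 of 626 genes in the same order. Those totals count genes with any cluster annotated to a gene. All 3 shares among 3' UTR genes lay below that background. Most genes enter the background through an intronic cluster, so its shares are high by construction. The comparison was therefore largely fixed beforehand, and no conclusion is drawn from it.

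Of the 12 genes with the highest share of 3' UTR cluster reads over both WT libraries, TRIM71, an RNA-binding ubiquitin ligase of early development, led by geometric mean with 882 reads in 5 clusters in WT rep1 and 1016 in 6 clusters in WT rep2. ZKSCAN8, a zinc finger protein, had 1089 reads in 15 clusters and 604 in 10. SCD had 1046 and 594 reads, and PEG10, an imprinted gene derived from a retrotransposon, 884 and 680. ZNF121, another zinc finger gene, had 643 and 778. TXLNA, a taxilin that binds syntaxins, had 1184 reads in 16 clusters and 399 in 9, of which 7 overlapped a cluster of WT rep1. MYADM, a membrane protein of raft domains, had 1953 and 226 reads, and POLE3, a histone-fold subunit of DNA polymerase epsilon, 988 and 406.
BRPF3, a scaffold of histone acetyltransferases, had 644 and 540 reads. MIDN, which takes proteins to the proteasome, had 602 and 536, TGOLN2, a trans-Golgi protein, 586 and 548, and CASP2 632 and 488. By number of clusters ARIH1, a ubiquitin ligase that works with cullins, was highest in WT rep1, with 24 clusters over 19390 nt and 795 reads. It had 5 clusters and 169 reads in WT rep2, beside 88 and 29 intronic clusters. In genes with several clusters, the gap between neighbours had a median of 345.5 nt in WT rep1 and 363 nt in WT rep2.

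**Figure D5:**
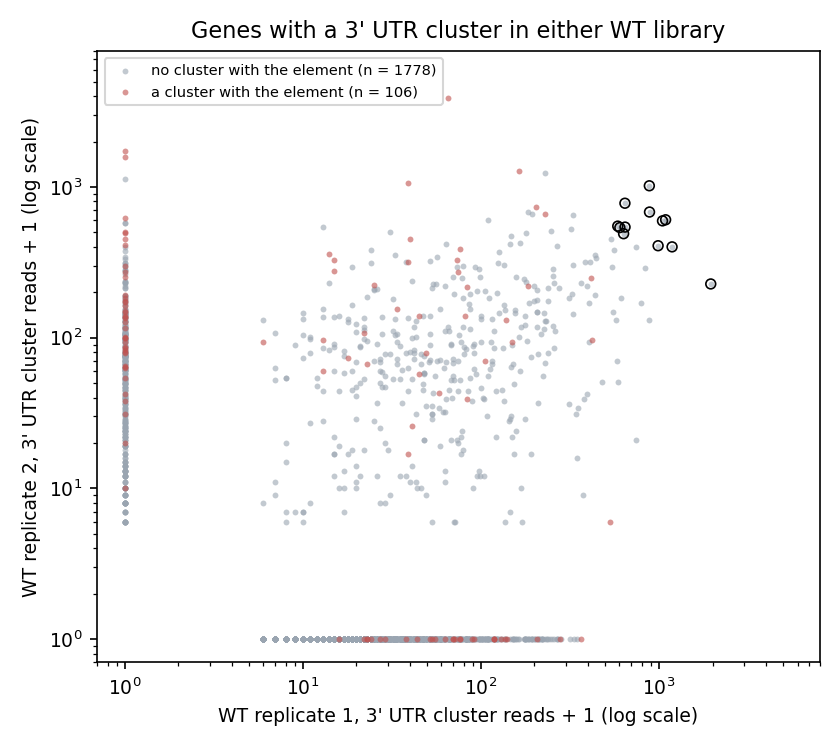
Reads in 3' UTR clusters per gene plus 1 (log scales) in WT rep1 and WT rep2, for 1884 genes with a 3' UTR cluster in either. Rings mark the 12 genes with the highest share over both, and red points mark genes with an element cluster in either library; genes found in 1 library only lie on the axes.

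Lists of genes by function are given by their counts. As background, of 9746 genes with any WT cluster, 19.3% had a 3' UTR cluster in either WT library and 4.41% in both. For hnRNP and polypyrimidine- or poly(C)-binding proteins it was 17 of 23 in either, or 73.9%, and 5 in both. These 5 were HNRNPA2B1, HNRNPF, PTBP1, PTBP3 and PCBP2. PCBP2, a poly(C)-binding protein, had 231 reads in WT rep1 and 127 in WT rep2. PTBP1, the polypyrimidine tract-binding splicing repressor, had 136 reads and 5. HNRNPA2B1 had 56 and 69, HNRNPF 28 and 55, and PTBP3 41 and 71. Without WT rep1 the count in that list was 6 and without WT rep2 it was 16, so the larger library supplies most of it. These lists hold genes named in earlier results of these data, so their counts are descriptions.

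Among SR splicing proteins 6 of 13 had a 3' UTR cluster in either WT library, but 1 in WT rep2, that of SRSF2. Among 3' UTR-binding regulators it was 12 of 25. Of those in both libraries, ZFP36L2, which brings AU-rich mRNAs to decay, had 118 and 84 reads, and CELF1, a binder of GU-rich RNA, 60 and 31. Among microRNA, deadenylation and decay genes it was 12 of 30, and 6 were in both. PATL1, a decapping scaffold, had 577 and 69 reads, and AGO1, an Argonaute, 236 and 78. TNRC6B, which joins Argonaute to deadenylases, had 89 and 87, AGO2 67 and 90, the deadenylase CNOT8 47 and 20, and the decapping enzyme DCP2 15 and 18.
For cleavage and polyadenylation it was 9 of 19, with CPSF7 of cleavage factor I at 229 and 127 reads and PABPN1, the nuclear poly(A)-binding protein, at 16 and 57. Nucleic acid sensing genes, the pathway in the series' title, had 5 of 13, and ADAR, which edits double-stranded RNA, was in both with 197 and 220 reads. The list falls to 1 gene without WT rep1. The RBR ligases and cullins had 3 of 17 and the paraspeckle proteins 3 of 8, all 3 of the latter from WT rep1.

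PUM2, which encodes a Pumilio protein, had 3' UTR clusters of its own. The deeper of its 2 clusters in WT rep2, at chr2:20248779-20248808 (-), is printed with TGTA in capitals.
PUM2, WT rep2: aacttcacttcttTGTAtattaTGTAtaaa
This cluster had 369 reads, with a change in 5.15% of them, and did not hold the whole element. The other had 29 reads, with a change in 96.6% of them. The KO cluster of PUM2, printed above, held the element and had 954 reads, of which 54.0% carried a change, at another position of the same gene. WT rep1 had no 3' UTR cluster in PUM2.

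A set of 6 genes had an element cluster in both WT libraries, out of 47 such genes in WT rep1 and 65 in WT rep2. These were BCL2L11, ETNK1, HIAT1, MRPL50, RSRP1 and ZFAND5. In all, the shared genes were 12.8% of the first list and 9.23% of the second. Among all 3' UTR genes, those found in both WT libraries were 28.3% and 54.3%, so element genes were shared less. BCL2L11, the pro-apoptotic BIM, had 21 and 106 reads in 3' UTR clusters, RSRP1 73 and 270, and ETNK1, an ethanolamine kinase, 83 and 38.

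In KO the 53 clusters lay in 52 genes, and 22 of these genes, or 42.3%, had a 3' UTR cluster in either WT library. A WT cluster of any class was found for 45 of the 52. The same share over all KO genes was not computed, so this count cannot be called high or low. Of all genes with any WT cluster, 19.3% had a 3' UTR cluster in either WT library. That share leaves out genes without a WT cluster, while the 42.3% does not, so they are not like for like. Positions were shared less. Overlap with a cluster of WT rep1 was found for 2 of 53, or 3.77%, where 5.23% of all KO clusters overlapped. With WT rep2 it was 3 of 53, or 5.66%, where 2.85% of all did. With either it was 4 of 53, or 7.55% (2.97 to 17.9%). Those 4 clusters were in NFKBIA, the inhibitor of NF-kappa-B, in ELMSAN1, and 2 in MRPL50, a protein of the mitochondrial ribosome. They are printed because they are the positions seen in both genotypes, with TGTA in capitals, at chr14:35401574-35401602 (-), chr14:73715298-73715325 (-), chr9:101388913-101388939 (-) and chr9:101388948-101388977 (-).
NFKBIA: ttaccctccTGTAaatggTGTAcataatg
ELMSAN1: TGTAcatatataaatattacctcttttg
MRPL50, first: ctttcacaattgtgaatacaaTGTAag
MRPL50, second: gtaaatagtattcacaattgtgaatacaat
The NFKBIA cluster had 258 reads in KO and 138 in WT rep1, with a change in 100% and 55.1% of reads. The ELMSAN1 cluster had 278 reads in KO, 38 in WT rep1 and 16 in WT rep2. The MRPL50 clusters had 485 and 1014 reads in KO and 194 and 468 in WT rep2. At the second MRPL50 position the element was in the longer WT rep2 cluster but not in the KO cluster. At ELMSAN1 it was in the KO and WT rep1 clusters but not in the shorter WT rep2 cluster. A match at these positions thus depends on where the cluster ends.

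By reads the KO 3' UTR list was led by MRPL50 with 1499 reads, followed by CTGF, a secreted matricellular growth factor, with 1351. RBM5, an RNA-binding splicing regulator, had 1174, PUM2 954 and AUTS2, a chromatin regulator of neural development, 750. Of these, CTGF and AUTS2 had no 3' UTR cluster in either WT library, and RBM5 had 26 reads in WT rep1. AUTS2 did have 120 intronic clusters in WT rep1 and 64 in WT rep2, while CTGF had 0 in each. The clusters of CTGF, PUM2 and AUTS2 held the element, and the RBM5 cluster held TGTA, with a change in 7.24% of its reads.
Genes with a 3' UTR cluster in all 3 libraries numbered 10. They were CFL1, DCP2, ELMSAN1, HIAT1, HMGXB4, MRPL50, NFKBIA, SPRED2, TMEM64 and ZDHHC9. CFL1, the actin-severing cofilin, had 98 reads in WT rep1, 250 in WT rep2 and 8 in KO. ZDHHC9, a palmitoyltransferase, had 229, 67 and 287, and SPRED2, an inhibitor of Ras signalling, 83, 215 and 114. DCP2 had 15, 18 and 109, HIAT1 44, 56 and 424, and HMGXB4 121, 21 and 36. Reads are not scaled between libraries, so only their order within a library can be read.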

How the data were processed

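MATR3 PAR-CLIP cluster tables of 2 WT and 1 KO HAP1 libraries were analysed. The submitters' processing notes name cutadapt 1.8.3, Bowtie 1.1.2 and the builds hg38 and GRCh38.p5; the cluster caller, annotation release and filters are not given in the sources used here. Clusters were called by the authors in each library separately. Reads, distinct sequences, converted positions and T-to-C events are the authors' counts, unscaled per the file headers. The share of reads with a change or ending in G is a deposited fraction, shown here as percent. The mode is a deposited position. No cluster had under 5 reads or under 2 converted positions. Depth outside clusters is unknown, and so, with no molecular identifiers, intervals cover counting error only.

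Members are rows annotated as 3' UTR, not mitochondrial; 2 clusters of WT rep1 lay on unplaced sequences. Shares carry 95% Wilson intervals and differences between 3' UTR and intronic clusters of 1 library carry Newcombe intervals. Overlap means 1 nt or more, strand included. The members, lists, words and rules were chosen with earlier results of these data known, and TGTA, TGTAAATA, the element comparisons and the hexamers were added after seeing values. Named genes are the 12 with the highest geometric mean share of 3' UTR reads over WT, 5 by number of clusters, 5 with the most KO reads, list members found in both WT libraries, genes found in all 3, and 10 WT cluster pairs that overlap, ranked by the geometric mean of their reads, chromosome 8 left out; others were chosen after their values were seen. An item that this rule names is not reported here. Gene names are those of the files, and each cluster carries 1 gene, so overlapping genes are uncertain. Distances to RefSeq gene ends (GRCh38.p14) took the place of a position within the 3' UTR. No cluster on chromosome 8 was considered for printing its sequence. Alternatives are in the closing section. Procedures were tested on simulated data. Python 3.11.15, numpy 2.4.6, pandas 2.3.3, scipy 1.17.1 and matplotlib 3.10.9 were used.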

Additional observations from a re-analysis of the deposited data

How the results depend on the processing

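Over 11 main results and 49 alternatives, 42 moved by less than the WT spread or stayed within the interval. With 2 WT libraries, leaving 1 out always moves a WT mean by less than its SD. Such settings could not count as moved by that spread and tell nothing about stability. Changes of sign were not counted. The WT T share minus introns did change sign, from -0.630 percentage points to 0.0995 without WT rep1, and was -1.36 without WT rep2. Of the 7 that moved, the 3' UTR share of clusters rose to 10.7% when each library was held to the number of KO clusters. The overlap of WT rep2 with WT rep1 fell to 14.3% with equal numbers of 3' UTR clusters, where fewer clusters remain to overlap. The share of WT rep2 genes found in WT rep1 was 60.0% with at least 2 clusters in each library and 92.6% with any cluster in WT rep1. The converted share was 7.82% as a median over clusters. The excess of low-conversion clusters over introns, 12.6 points on average, was 8.73 without the Pumilio core. The difference between element and other clusters in the median share of reads with a change, -58.7 points in WT, was -40.4 within read classes. In KO, with 13 element clusters, the same values were -4.00 and -20.3 points. The cause was not tested. The last 2 results and all settings for the element were chosen after seeing the data. Of gene list counts, those of 7 lists moved by over 1.5 times without WT rep1. No paired analysis was possible because the KO label carries no replicate number, so the groups share fewer than 2 numbers. With 1 KO library and a minimum of 5 reads per cluster, no genotype difference has an error and no absence can be stated.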
